A study of Mus musculus with 7 samples.

Results

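miR-26a-5p and miR-26b-5p are the guide strands of the miR-26 family, and they were followed here in extracellular vesicles released by mouse fat. They were chosen by name, as the 2 entries mmu-miR-26a-5p and mmu-miR-26b-5p among the 1084 entries of the combined count table, by a rule that uses no measured value, although earlier results of these data were known when they were picked. Libraries HFD 1 to HFD 3 came from vesicles of adipose tissue of male C57BL/6J mice given a high-fat diet (HFD). The libraries Chow 1 to Chow 4 came from male C57BL/6J mice fed normal chow, and both diets ran for 12 weeks as the design text words it. All 7 libraries share the tissue, the Trizol extraction and the small RNA sequencing. The labels give neither the fat depot nor the ages, and they do not say whether mice were pooled or whether each library had its own animal, so the p-values below reflect how far these libraries spread, and part of that spread may be technical.

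A microRNA (miRNA) is cut as a duplex from a hairpin precursor. The guide strand is loaded into an Argonaute protein and pairs with messenger RNAs mainly through its seed, bases 2 to 8, while most of the passenger strand is degraded. The hairpins of the miR-26 family lie within genes for small phosphatases that act on the tail of RNA polymerase II, an arrangement that is conserved among vertebrates. In human fat precursor cells the family has been reported to favour differentiation and a thermogenic, brown-like state, and in mouse liver miR-26a has been reported to favour insulin sensitivity. Ezh2, a histone methyltransferase, is a widely described target.

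The mature sequences are shown because they set what the counts can and cannot separate. They are given 5′ to 3′ from RefSeq (GRCm38.p6), with the seed in capitals.
miR-26a-5p: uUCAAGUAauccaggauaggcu
miR-26b-5p: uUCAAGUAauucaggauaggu
Both carry the seed UCAAGUA, and among the 878 listed miRNAs with a sequence in that table no other entry has it. Counted from 1 at the 5′ end of miR-26a-5p, the members differ by C11U and C21U, and miR-26a-5p is longer by 1 base. They are thus identical at 19 of the 21 shared positions. How many mismatches the authors' alignment allowed is not given in the sources used here, so a small exchange of reads between the entries cannot be measured.

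The hairpins are shown because miR-26a-5p is made from a pair of them. Mature arms are in capitals, the guide on the 5′ side and the passenger on the 3′ side (GRCm38.p6, plus strand, RefSeq).
Mir26a-1: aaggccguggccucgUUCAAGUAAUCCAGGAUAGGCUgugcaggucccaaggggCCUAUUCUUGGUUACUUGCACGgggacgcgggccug
Mir26a-2: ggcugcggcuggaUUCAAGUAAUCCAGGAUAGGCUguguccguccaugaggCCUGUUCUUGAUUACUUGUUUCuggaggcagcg
Mir26b: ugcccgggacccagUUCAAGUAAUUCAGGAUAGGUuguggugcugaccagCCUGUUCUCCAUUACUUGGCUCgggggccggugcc
Mir26a-1 lies at chr9:119031796-119031885 within Ctdspl, Mir26a-2 at chr10:126995530-126995613 within Ctdsp2, and Mir26b at chr1:74394310-74394394 within Ctdsp1. In GENCODE M21 (GRCm38) none of the 3 overlaps an exon of a host transcript that spans it, so each is intronic there, on the strand of its host. The build used by the authors is not given in the sources used here, so these positions come from the annotation and not from the count files. The guide of Mir26a-1 and that of Mir26a-2 have the same letters, so a miR-26a-5p count cannot be assigned to either locus. The passenger strands differ and can be.

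Total counts ranged from 1825488 to 5941955 in HFD libraries and from 48840 to 2294878 in Chow libraries. Chow 3, with 48840 counts, and Chow 2, with 180694, stood apart from the other libraries by depth. miR-148a-3p, the most abundant miRNA, took 21.02% to 26.4% of the counts in HFD libraries and 39.7% to 58.0% in Chow libraries. CPM below are counts scaled to the library total. Normalised CPM divide by the total after TMM scaling (trimmed mean of M values), which sets the bulk of miRNAs equal between libraries and is less moved by a single dominant miRNA. For fat, no miRNA is fully defining, but all 6 miRNAs of a fat-associated list were detected in every library. Their summed levels were 8161 to 14442 CPM in HFD and 6693 to 15813 CPM in Chow. Most of that sum was miR-378a-3p, at a mean of 9219 normalised CPM in HFD and 11258 in Chow. Only 1 of the 6 had a positive log2 fold change of HFD over Chow, and their median was -0.61. None of the 6 passed the test over all miRNAs. Markers of other cell types were also present, and their part in the results below was not tested. In such bulk RNA, more vesicles from a cell type and more of a miRNA per vesicle cannot be told apart. The summed 7 leukocyte markers stood at 12788 to 24614 CPM in HFD and 3686 to 9945 CPM in Chow, with miR-223-3p at 0 in Chow 3. The 3 endothelial markers stood at 1420 to 1618 CPM in HFD and 1989 to 6802 CPM in Chow, and the 4 markers of smooth muscle and stroma at 5418 to 6632 CPM in HFD and 9672 to 26155 CPM in Chow. Within these lists the markers did not move alike. In mean normalised CPM, miR-126a-3p stood at 939 in HFD and 3073 in Chow, but miR-139-5p at 391 and 373. Likewise miR-143-3p stood at 2511 in HFD and 15006 in Chow, but miR-199a-3p at 2810 and 2739. The log2 fold change was positive for 1 of the 3 endothelial and 2 of the 4 smooth muscle and stroma markers, but for all 7 leukocyte markers. Summed erythroid (4 of 5 markers listed), striated muscle (3), hepatocyte (2) and epithelial (5) markers overlapped between the diets.

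miR-26a-5p was among the most abundant miRNAs of these vesicles. It had 29064, 40647 and 142312 counts in HFD 1 to HFD 3 and 24119, 1699, 336 and 23232 counts in Chow 1 to Chow 4. By abundance it ranked 11th, 8th and 7th in HFD 1 to HFD 3, and 8th, 15th, 15th and 12th in Chow 1 to Chow 4. It took 1.48%, 2.23% and 2.40% of the counts in HFD 1 to HFD 3, against 1.14%, 0.940%, 0.688% and 1.01% in Chow 1 to Chow 4. On this scale every HFD library lay above every Chow library. The exact binomial (Clopper-Pearson) 95% intervals were 1.46% to 1.49% in HFD 1, 2.21% to 2.25% in HFD 2 and 2.38% to 2.41% in HFD 3. In Chow they were 1.12% to 1.15% in Chow 1, 0.896% to 0.986% in Chow 2, 0.617% to 0.765% in Chow 3 and 0.999% to 1.03% in Chow 4. No intervals overlapped within a diet, so libraries of the same diet differed by more than counting error. These intervals and the limits given for a count of 0 cover counting error only, since reads copied by PCR and lacking molecular identifiers may come from the same molecule.

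miR-26b-5p was the scarcer member in all 7 libraries. It had 5914, 6575 and 15544 counts in HFD 1 to HFD 3 and 3315, 121, 28 and 2300 counts in Chow 1 to Chow 4, where the value of Chow 3 rests on those 28 reads. It ranked 34th, 29th and 33rd in HFD 1 to HFD 3, and 40th, 76th, 66th and 60th in Chow 1 to Chow 4. It took 0.300%, 0.360% and 0.262% of the counts in HFD libraries and 0.156%, 0.0670%, 0.0573% and 0.100% in Chow libraries. Here too the diets did not overlap, and Chow 1 was the nearest Chow library. The exact binomial 95% interval in Chow 3, 0.0381% to 0.0828%, lay below the interval in HFD 3, 0.258% to 0.266%.

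After TMM scaling the means of both members were higher in HFD vesicles, but neither passed the test over all miRNAs. Normalised CPM of miR-26a-5p were 13574, 18928 and 22007 in HFD 1 to HFD 3 and 16007, 7986, 7402 and 11080 in Chow 1 to Chow 4. The diets overlapped, since Chow 1 lay above HFD 1, and 11 of the 12 pairs of an HFD and a Chow library had the higher value in HFD. The mean was 18170 ± 4267 in HFD (SD, n = 3) and 10619 ± 3938 in Chow (SD, n = 4), and the edgeR quasi-likelihood log2 fold change was 0.77 (SE 0.36, unadjusted p = 0.0526, Benjamini-Hochberg adjusted p = 0.213).

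Normalised CPM of miR-26b-5p were 2762, 3062 and 2404 in HFD 1 to HFD 3 and 2200.0, 569, 617 and 1097 in Chow 1 to Chow 4. All 12 pairs were higher in HFD, though HFD 3 exceeded Chow 1 by a ratio of only 1.09. The mean was 2743 ± 329 in HFD (SD, n = 3) and 1121 ± 758 in Chow (SD, n = 4), a 2.43-fold difference in the edgeR fit, with a log2 fold change of 1.28 (SE 0.49, unadjusted p = 0.0221, adjusted p = 0.141). In that fit 11 of 385 tested miRNAs, or 2.86%, passed an adjusted p of 0.05, and neither of the 2 members did. Both had passed the filter on low counts. At an unadjusted p under 0.05, which miR-26b-5p met and miR-26a-5p did not, there were 93 of 385 miRNAs (24.2%). Libraries without overlap and higher in HFD, as for miR-26b-5p, were found for 13.0% of tested miRNAs on the TMM scale and for 21.3% in CPM, where both members had this pattern. The members were thus 2 among many with such a pattern.

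**Figure D1:**
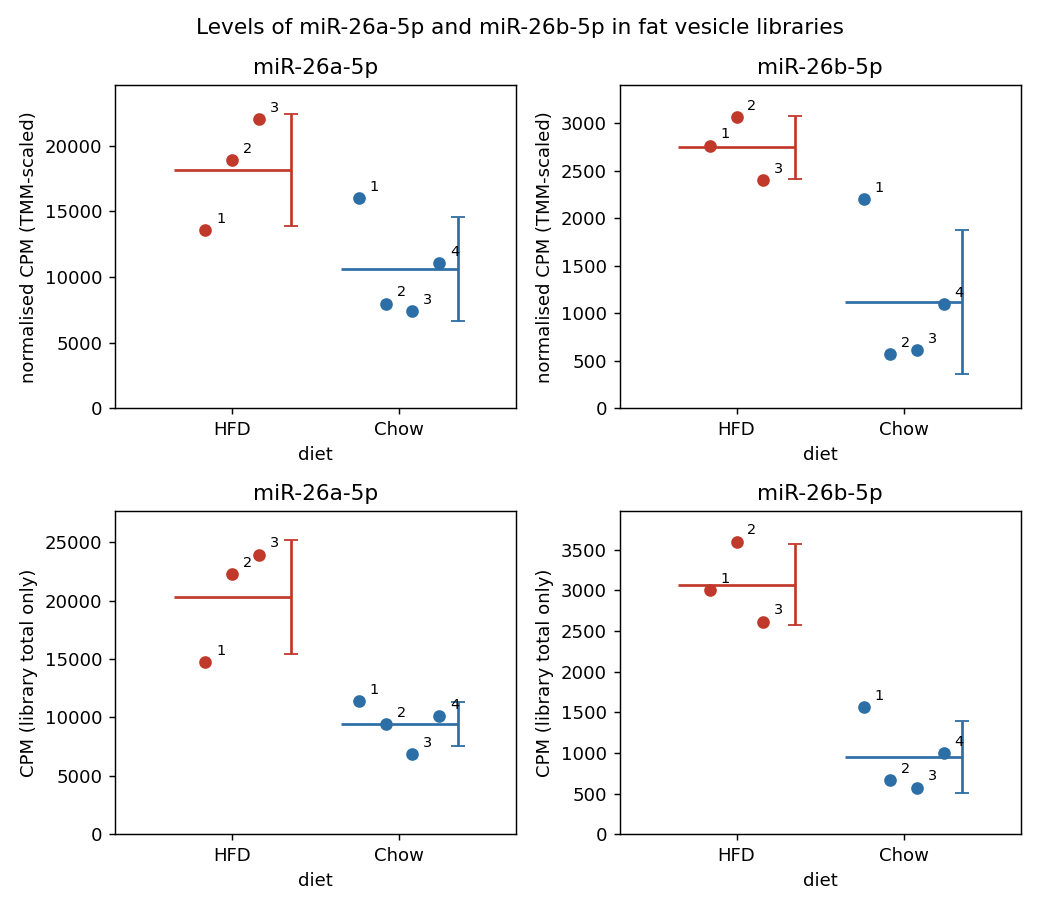
Levels of miR-26a-5p (left) and miR-26b-5p (right) as normalised CPM after TMM scaling (top) and as CPM of the library total (bottom), with a point for each library numbered by replicate, a line at the group mean and a bar of 1 SD (HFD n = 3, Chow n = 4). The Chow 1 value of miR-26a-5p moves to 16007 on the TMM scale, above HFD 1 at 13574, while in CPM all HFD points lie above all Chow points.

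**Figure D2:**
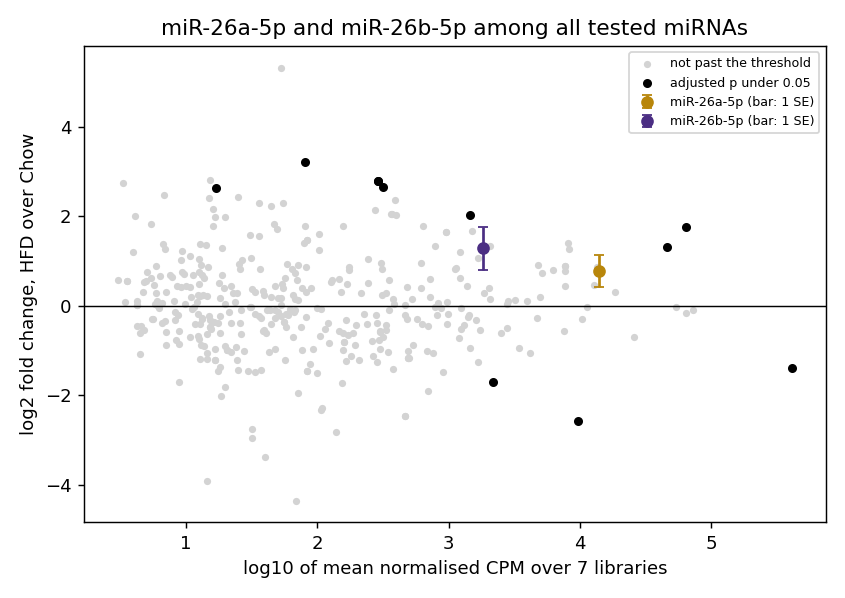
Log2 fold change of HFD over Chow in edgeR (vertical axis) against the log10 of the mean normalised CPM over 7 libraries (horizontal axis) for 385 tested miRNAs, with the 11 past an adjusted p of 0.05 in black. miR-26a-5p at 0.77 and miR-26b-5p at 1.28, with bars of 1 SE, lie above 0 among grey points of similar size, and 50 tested miRNAs had a log2 fold change of at least that of miR-26b-5p.

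The size of the difference depended on the shallow Chow libraries and on the scaling. Without Chow 2 and Chow 3 the edgeR log2 fold change was 0.42 (SE 0.34, adjusted p = 0.481) for miR-26a-5p and 0.73 (SE 0.40, adjusted p = 0.307) for miR-26b-5p, and 0 of 403 miRNAs (0.0%) passed in edgeR, with 95 at an unadjusted p under 0.05 and none of the 2 members among them. Without Chow 1, which held the highest Chow values of both members, miR-26b-5p passed, with its log2 fold change at 1.85 (edgeR adjusted p = 0.0220). miR-26a-5p, at 1.05, did not (edgeR adjusted p = 0.0746). In that fit 8.49% of tested miRNAs passed. With the library total as the only scaling both members passed, at 1.10 for miR-26a-5p (edgeR adjusted p = 0.0470) and 1.68 for miR-26b-5p (edgeR adjusted p = 0.0354), in a fit where 10.1% of tested miRNAs passed. That scaling moved the median log2 fold change of all tested miRNAs to 0.31, against -0.02 with TMM. Relative to that median the members changed little between the scalings, at 0.79 for the library total and 0.80 for TMM for miR-26a-5p, and 1.37 and 1.30 for miR-26b-5p. A change of scaling shifts all miRNAs nearly alike, so this distance could hardly move. Without Chow 2 and Chow 3 the distance to the median was 0.55 for miR-26a-5p and 0.86 for miR-26b-5p. With no filter on low counts miR-26b-5p passed at 1.60 (edgeR adjusted p = 0.0231) and miR-26a-5p did not at 1.12 (edgeR adjusted p = 0.0613), while the median of all 1042 miRNAs in that fit was 0.56 and 5.95% passed. In DESeq2, where 12.2% of miRNAs passed, neither member did, at 0.86 for miR-26a-5p (DESeq2 adjusted p = 0.218) and 1.39 for miR-26b-5p (DESeq2 adjusted p = 0.0635).

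**Figure D3:**
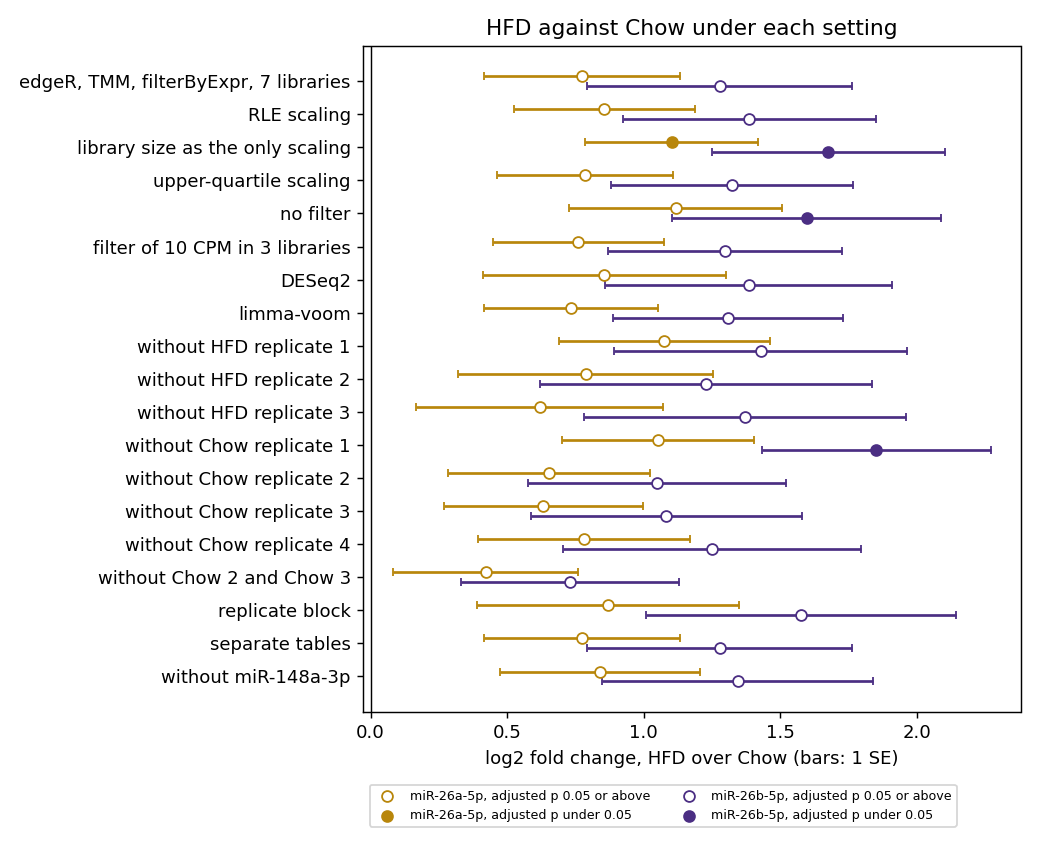
Log2 fold change of HFD over Chow with bars of 1 SE for both members under each normalisation, filter, tool and omission of libraries (rows), filled where the adjusted p was under 0.05. All values lie to the right of 0, between 0.42 and 1.12 for miR-26a-5p and between 0.73 and 1.85 for miR-26b-5p, and few points are filled.

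Together the pair held a larger part of the vesicle counts in HFD libraries. miR-26a-5p and miR-26b-5p summed to 1.78%, 2.59% and 2.66% of all counts in HFD 1 to HFD 3, against 1.29%, 1.01%, 0.745% and 1.11% in Chow 1 to Chow 4, without overlap. The mean was 2.34% ± 0.490 in HFD (SD, n = 3) and 1.04% ± 0.229 in Chow (SD, n = 4). Exact permutation of the diet labels (two-sided, 35 assignments) gave p = 0.0286, the smallest possible here, and the p adjusted over the 4 single-value comparisons made was 0.114, above the threshold. A single comparison at the smallest possible p cannot pass after this adjustment, so the adjusted p could not decide whether the share differed. A share is part of a total, and miR-148a-3p took less of that total in HFD. With miR-148a-3p left out of the total, the pair held 2.41%, 3.40% and 3.36% in HFD 1 to HFD 3 and 3.02%, 1.79%, 1.77% and 1.84% in Chow 1 to Chow 4. HFD 1 then lay below Chow 1, the diets overlapped, and the exact permutation p was 0.0857 (adjusted p = 0.229).

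**Figure D4:**
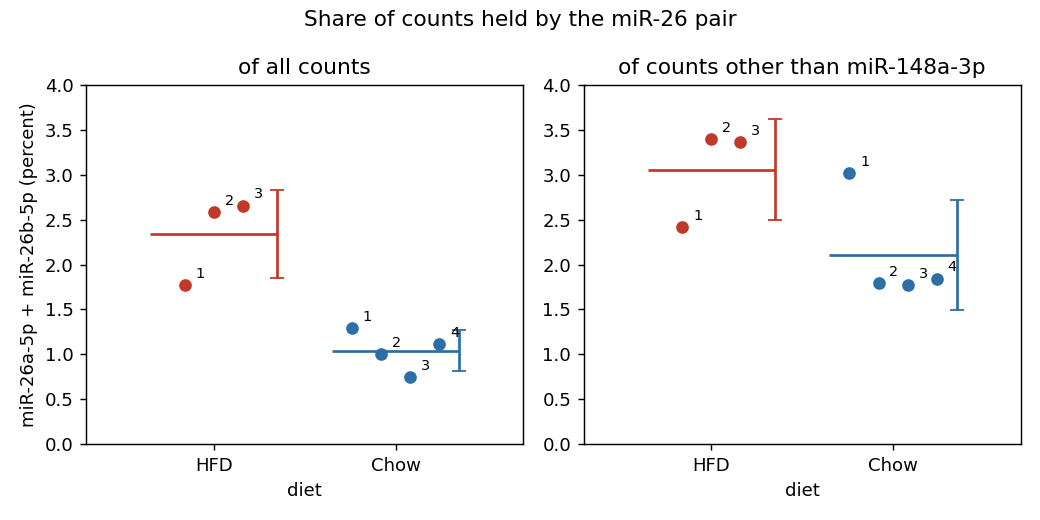
Summed share of miR-26a-5p and miR-26b-5p, in percent of all counts (left) and of the counts other than miR-148a-3p (right), by library, with group means and bars of 1 SD (HFD n = 3, Chow n = 4). The diets are apart on the left and overlap on the right, where Chow 1 at 3.02% exceeds HFD 1 at 2.41%.

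The balance between the members was compared as their count ratio within each library, which no library scaling can change. miR-26a-5p outnumbered miR-26b-5p by 4.91, 6.18 and 9.16 to 1 in HFD 1 to HFD 3, and by 7.28, 14.0, 12.0 and 10.1 to 1 in Chow 1 to Chow 4. HFD 3 lay within the range of Chow, between Chow 1 and Chow 4, and HFD 1 and HFD 2 lay below all Chow libraries. Exact binomial 95% intervals of the ratio were 9.01 to 9.31 in HFD 3 and 7.02 to 7.55 in Chow 1, but 8.15 to 18.3 in Chow 3, so the order of the shallow libraries among themselves is not settled by the counts. On the log2 scale the mean was 2.71 ± 0.45 in HFD (SD, n = 3) and 3.40 ± 0.41 in Chow (SD, n = 4), a difference of -0.69. The exact two-sided permutation p was 0.114 and the adjusted p 0.229, so a larger fold change of miR-26b-5p than of miR-26a-5p was not shown. Without Chow 2 and Chow 3 the difference was -0.39 (exact permutation p = 0.4, where the smallest possible is 0.1). Within HFD, HFD 3 was the highest library for miR-26a-5p and the lowest for miR-26b-5p in both CPM and normalised CPM, while HFD 2 lay above HFD 1 for both members.

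**Figure D5:**
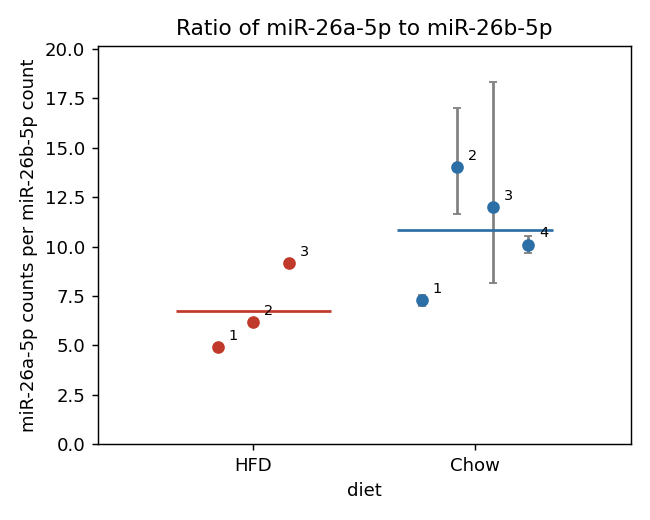
Counts of miR-26a-5p per count of miR-26b-5p in each library, numbered by replicate, with exact binomial 95% intervals (grey, hidden by the point where narrow) and lines at the group means. HFD 3 at 9.16 lies among the Chow values of 7.28 to 14.0.

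The passenger strands were scarce, and they are shown because they can tell the hairpins apart (RefSeq, 5′ to 3′, bases 2 to 8 in capitals).
miR-26a-1-3p: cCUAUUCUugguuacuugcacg
miR-26a-2-3p: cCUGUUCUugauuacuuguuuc
miR-26b-3p: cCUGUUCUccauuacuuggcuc
miR-26a-1-3p, from the Ctdspl locus, was found only in HFD 3, with 7 counts, and at 0 counts in the other 6 libraries. A count of 0 allows up to 1.64 CPM in HFD 2, the shallowest HFD library, and up to 61.4 CPM in Chow 3, and the 7 counts of HFD 3 equal 1.18 CPM. Read singly, each of the other 6 libraries was therefore too shallow for its 0 to differ from the level of HFD 3. Whether the 0 counts of all 6 differ jointly from HFD 3 was not tested. miR-26a-2-3p, from the Ctdsp2 locus, had 12, 32 and 59 counts in HFD 1 to HFD 3 and 23, 0, 0 and 27 counts in Chow 1 to Chow 4. Its normalised CPM were 5.60, 14.9 and 9.12 in HFD libraries and 15.3, 0, 0 and 12.9 in Chow libraries, and the edgeR log2 fold change was -0.15 (SE 0.66, adjusted p = 0.916). miR-26b-3p, from the Ctdsp1 locus, had 2, 2 and 20 counts in HFD libraries and 1, 1, 0 and 1 counts in Chow libraries, and neither it nor miR-26a-1-3p passed the filter on low counts. In every library with a miR-26a passenger read, most such reads came from Mir26a-2, but passenger counts do not measure how much guide each locus made.

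As a part of all reads of its hairpins, the miR-26a passenger strands held 0.0413%, 0.0787% and 0.0464% in HFD 1 to HFD 3 and 0.0953%, 0%, 0% and 0.116% in Chow 1 to Chow 4. The 0 of Chow 2 allows up to 0.177% and that of Chow 3 up to 0.893%, so both are compatible with the values of the deep libraries. The means differed by 0.0026 percentage points (exact permutation p = 0.943, adjusted p = 0.943). For miR-26b the passenger share was 0.0338%, 0.0304% and 0.129% in HFD libraries and 0.0302%, 0.820%, 0% and 0.0435% in Chow libraries, where the value of Chow 2 is 1 read of 122 and the 0 of Chow 3 allows up to 10.7%. The exact permutation p was 0.914. The highest passenger share observed was that 1 read of 122, whose exact binomial 95% interval reaches 4.48%.

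In abundance, with levels as the mean CPM of the 7 libraries and all mature miRNAs of nearly equal length, miR-26a-5p stood 9th of 1084 entries, at 14108. Directly above it were miR-30d-5p at 19181 and miR-30a-5p at 24974, and directly below let-7g-5p at 13756 and let-7i-5p at 13222. The SD of miR-26a-5p over the libraries, 6603, exceeded the distance to each neighbour except miR-30a-5p. That SD spans both diets, and the order within libraries was not tested. In mean CPM by diet, miR-30a-5p and miR-30d-5p lay above miR-26a-5p in both diets, and let-7g-5p lay below it. let-7i-5p lay below it in HFD, at 16807 against 20324, and above it in Chow, at 10534 against 9445. miR-26b-5p stood 40th at 1861 ± 1211 (SD, n = 7), between miR-1839-5p at 1909 and miR-708-3p at 1743, with miR-30e-5p at 1982 and miR-101a-3p at 1701 beyond them. That place is a mean over both diets and was held by neither diet mean. miR-26b-5p averaged 3073 CPM in HFD, above all 4 neighbours (1048 to 2620), and 952 CPM in Chow, below all 4 (1503 to 2264). In Chow 1 alone it did rank 40th. Since the neighbours were picked by the mean over 7 libraries, their order by diet largely restates the diet difference in CPM. Of the 4, miR-708-3p and miR-101a-3p had log2 fold changes of the opposite sign to miR-26b-5p, at -1.25 (edgeR adjusted p = 0.141) and -0.55 (edgeR adjusted p = 0.398).

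The miRNAs whose levels ran most alike with the members were ranked by Pearson's r of log2 normalised CPM over 7 libraries, as a description without a test, since the libraries share depth and diet. miR-340-5p came second for miR-26b-5p, with r = 0.97 (Spearman's rho 0.96, and r = 0.99 without Chow 2 and Chow 3, the libraries farthest from the median). It averaged 2391 ± 173 normalised CPM in HFD (SD, n = 3) and 1131 ± 740 in Chow (SD, n = 4), close to the 2743 and 1121 of miR-26b-5p. miR-21a-5p, a miRNA widely reported in inflamed tissue, came next for miR-26b-5p (r = 0.97, rho 0.86, and 0.88 without these libraries). It averaged 107307 ± 5320 in HFD and 31964 ± 16284 in Chow. miR-362-5p came first for miR-26b-5p (r = 0.99, rho 0.88, and 0.94 without them), but it had 0 counts in Chow 2 and Chow 3. The one ranked 3 for miR-26a-5p was miR-146b-5p (r = 0.93, rho 0.96, and 0.96 without these libraries), at 6520 ± 1773 in HFD and 3483 ± 703 in Chow. The first and second, miR-467a-3p and miR-467d-3p, had the same counts in every library, 0 in Chow 2 and Chow 3, and r = 0.96 (rho 0.88, and r = 0.88 without these libraries). For the mean of both members the first 5 were miR-362-5p, miR-21a-5p, miR-467e-5p, miR-340-5p and miR-15b-3p, with r of 0.95 to 0.98, rho of 0.63 (miR-15b-3p) to 0.99 and r of 0.86 to 0.92 without Chow 2 and Chow 3. Between the members r was 0.92 (rho 0.79), and 0.69 without Chow 2 and Chow 3. On this measure miR-26b-5p was 10th of 384 for miR-26a-5p, and miR-26a-5p was 22nd of 384 for miR-26b-5p. The median r of all tested miRNAs was 0.43 for either member.

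Other miRNAs reported to act on fat cells were read beside the pair by count and median. Over all 385 tested miRNAs, 8 rose and 3 fell in edgeR, 190 had a positive log2 fold change and the median was -0.02. Of 19 adipogenic miRNAs, 1 rose, miR-21a-5p (log2 fold change 1.75, edgeR adjusted p = 0.0328), and 2 fell, miR-143-3p (-2.58, edgeR adjusted p = 0.0224) and miR-148a-3p (-1.39, edgeR adjusted p = 0.0328), and the median was -0.33. Of these, miR-21a-5p is also known in leukocytes and miR-143-3p in smooth muscle. miR-143-3p is itself among the 4 markers of smooth muscle and stroma summed above, so that sum is not separate information about it. Of 15 tested anti-adipogenic miRNAs none passed, 12 had a positive value and the median was 0.55. The 2 with the smallest p were miR-221-3p (1.33, edgeR adjusted p = 0.0642) and miR-145a-5p (-1.12, edgeR adjusted p = 0.163).

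None of 14 miRNAs reported to favour thermogenic fat passed, 2 had a positive value and the median was -0.57. The smallest p belonged to miR-129-5p (-1.47, edgeR adjusted p = 0.205) and miR-365-3p (-0.98, edgeR adjusted p = 0.241). The values of 0.77 and 1.28 of miR-26a-5p and miR-26b-5p, which are credited with the same role in human cells, thus had the opposite sign to that of most of these 14. None of 10 miRNAs reported to restrain thermogenic fat passed either, all 10 had a positive value and the median was 0.57. Their smallest p belonged to miR-150-5p (2.13, edgeR adjusted p = 0.0642), a lymphocyte miRNA, and miR-27b-3p (0.78, edgeR adjusted p = 0.172), whose log2 fold change was close to that of miR-26a-5p. Without Chow 2 and Chow 3, 6 of these 10 had a positive value and the median was 0.29, and the anti-adipogenic list had 9 of 15 and a median of 0.01. Under RLE, upper-quartile and library-total scaling each of these 4 medians kept its sign, but with the library total the adipogenic median was -0.03, the median of miRNAs reported to favour thermogenic fat -0.28 (4 of 14 positive), the anti-adipogenic median 0.92 and that of miRNAs reported to restrain it 0.91. The median of all tested miRNAs was then 0.31. These lists share members, so their medians are not separate information. The anti-adipogenic list and that of miRNAs reported to restrain thermogenic fat share miR-27b-3p, miR-155-5p, miR-93-5p and miR-125b-5p. The adipogenic list and that of miRNAs reported to favour it share miR-30c-5p and miR-378a-3p. Among the cell type markers above, miR-150-5p, miR-155-5p, miR-145a-5p, miR-199a-3p and miR-214-3p are also in these lists.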

How the data were processed

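Small RNA was sequenced from adipose tissue vesicles in 3 HFD and 4 Chow libraries. Per the file headers, the authors deposited unnormalised read counts for each miRNA entry. Bowtie was used, with no version given, per the submitters' processing notes. Neither the build nor the annotation release, counting program or filters are stated (not given in the sources used here). Values come from the combined table (1084 entries, 46 of them numbered predictions). Chow 2 and Chow 3 have 485 blank entries in the separate Chow table, which the combined table holds as 0, and apart from these 0 values differed.

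In R 4.3.3, edgeR 4.0.16 tested the counts by quasi-likelihood (TMM, filterByExpr, diet as the only term, Benjamini-Hochberg over all 385 tested miRNAs, threshold 0.05), and SE were derived from the F statistic. Of the 4 single-value comparisons, each used an exact two-sided permutation test over 35 assignments, adjusted over the 4. Log2 normalised CPM for likeness used a prior count of 2. A count of 0 was read as up to 3 counts. Alternatives were other scalings and filters, DESeq2 1.42.0, limma-voom (limma 3.58.1), omission of libraries, a replicate block, the separate tables, other denominators and a pseudocount of 0.5. The edgeR script was tested on simulated data. Named miRNAs are the members, their passenger strands, the first 5 in likeness to the members' mean and 3 to each, 2 neighbours on each side in mean CPM, and in each list those past the threshold and the 2 with the smallest p. The members and the lists were chosen with earlier results of these data known.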

Additional observations from a re-analysis of the deposited data

Results flagged for a closer look

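Of 8 quantities checked for a library far from the others of its group, 1 had such a library in Chow. The share of miR-26b reads on the passenger strand was 0.820% in Chow 2, against 0.0302%, 0% and 0.0435% in Chow 1, Chow 3 and Chow 4. It rests on 1 read of 122 and its exact binomial 95% interval runs from 0.0208% to 4.48%. Chance alone marks about 1 in 20 such groups. HFD, with 3 libraries, was too small for this check.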

How the results depend on the processing

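Both members kept a positive log2 fold change in all 18 alternatives each, between 0.42 and 1.12 for miR-26a-5p and between 0.73 and 1.85 for miR-26b-5p, with adjusted p between 0.0470 and 0.519 and between 0.0220 and 0.397. One of these, the separate tables, holds the same values and could only repeat the main fit. The members passed with the library total as the only scaling (1.10 and 1.68), and miR-26b-5p also with no filter (1.60) and without Chow 1. With each library left out in turn, miR-26a-5p ranged from 0.62 to 1.08 and miR-26b-5p from 1.05 to 1.85. The number of miRNAs past the threshold was 11, and 18 with RLE scaling, 39 with the library total as the only scaling, 62 with no filter, 47 in DESeq2, and 0 without Chow 2 and Chow 3 (95 at an unadjusted p under 0.05). With each library left out in turn it ranged from 0, without HFD 2 (57 at an unadjusted p under 0.05), to 32, without Chow 1, and leaving out Chow 2 gave 4, Chow 3 gave 6, Chow 4 gave 1 and HFD 3 gave 1. The cause of these differences was not tested. The log2 ratio of the members and the summed share kept their direction and their side of the threshold in all 11 alternatives each, from -0.94 to -0.39 and from 0.917 to 1.58 percentage points, and with each library left out in turn they ranged from -0.94 to -0.49 and from 1.14 to 1.58. Most of these designs are too small to pass. For the ratio and the summed share the replicate block gave the same estimates as the omission of Chow 4. The difference in the miR-26a passenger share turned to -0.0418 with a pseudocount of 0.5 and -0.0502 without Chow 2 and Chow 3, and ranged from -0.0150 to 0.0237 with each library left out in turn (-0.0090 without HFD 2). That of miR-26b was -0.159, turned to 0.0274 without Chow 2 and Chow 3, was -0.693 with a pseudocount of 0.5, and ranged from -0.234 to 0.0397 with each library left out in turn. These shares are limited by 0 to 66 passenger reads a library.

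The labels do not say whether equal replicate numbers mark paired libraries. Deviations from the group means correlated across miRNAs at 0.067, -0.164 and 0.035 for numbers 1, 2 and 3. No HFD library correlated best with its own number. HFD 1 and HFD 2 did so with Chow 4, at 0.175 and 0.185, and HFD 3 with Chow 2, at 0.309. Of Chow 1 to Chow 3, only Chow 3 correlated best with its own number. These correlations gave no sign of pairing, but with so few libraries, and Chow 2 and Chow 3 shallow, they cannot exclude it. With the replicate block 23 miRNAs passed in place of 11, and the members had 0.87 (edgeR adjusted p = 0.311) and 1.58 (edgeR adjusted p = 0.100). As 3 blocked pairs the ratio gave -0.71 and the summed share 1.32, where an exact permutation p cannot go below 0.25.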
